A study of Mus musculus with 9 samples.

Results

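The genes described here are 56 skeletal muscle genes that were measured in the growth plate of newborn mice. They were taken from a list of genes for the sarcomere, the control of muscle formation and muscle metabolism, and each was represented by the probe set that maps to that gene alone and has the highest mean over the 9 arrays. All 56 are among the 18193 genes of the array. Of these, 55 passed the filter on low signal (a mean log2 value above 7.21, the median probe set), as did 11313 of the 18193 genes, and the exception was Myh4, the myosin heavy chain of the fastest adult fibres.

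The samples were 3 layers cut from the proximal growth plate of the tibia in wild-type Black Swiss mice at birth (P0): the round, the flat and the hypertrophic cell layer, with 3 arrays each. Each array held total RNA of 1 layer from 1 litter of 9 to 10 pups, pooled from 18 to 20 tibiae, so that the 3 litters gave 3 matched sets and n is 3 litters throughout. No treatment or transgene was used, sex is not labelled, and the layers were cut by hand from frozen sections of whole hind limbs under a microscope, with no sort for a cell type. The 10 cartilage markers on the list (Col2a1, Acan, Sox9 and others) all passed the filter, with summed signals of 101443 to 126601 on the round arrays, 69935 to 105791 on the flat arrays and 69810.5 to 78394 on the hypertrophic arrays.

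Skeletal muscle fibres are packed with sarcomeres, in which thick filaments of myosin slide along thin filaments of actin when calcium binds the troponin complex. Most parts of the sarcomere exist as several isoforms from separate genes: embryonic and perinatal isoforms come first in development, and slow and fast fibre isoforms replace them as fibres mature. Muscles and their tendons attach to the cartilage of the newborn tibia through its sheath, the perichondrium, so muscle lies close to the growth plate in a section of the limb. Chondrocytes are not known for making striated sarcomeres.

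Muscle transcripts were highest in the flat layer. Of the 55 genes tested, 50 rose in the flat layer relative to the round layer and 0 fell, whereas 8.39% of all tested genes rose and 8.64% fell (limma with litter as a block, adjusted p under 0.05). In the hypertrophic layer, 40 of the 55 fell relative to the flat layer and 0 rose, against 5.22% and 6.12% of all tested genes. Between the hypertrophic and the round layer, 4 genes rose (Tpm1, Neb, Tnni1 and Myog) and 0 fell, against 12.4% and 12.7% of all tested genes. Each of these counts of 0 was also 0 in limma at an unadjusted p under 0.05. Differences are of log2(signal + 26), which understates the change of genes near a signal of 26, and a value of 1 is a doubling. The median log2 difference of the 55 genes was 1.47 for flat minus round, -1.04 for hypertrophic minus flat and 0.39 for hypertrophic minus round, while the medians over all tested genes lay between -0.01 and 0.01. In bulk samples such as these, fewer cells of a type and less RNA per cell cannot be told apart. Where a layer's muscle RNA came from was not tested.

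The litter enters these counts. Without the litter block 20 of the 55 genes rose in the flat relative to the round layer (3.58% of all tested genes in that fit), 1 fell in the hypertrophic relative to the flat layer (1.74%) and 0 rose in the hypertrophic relative to the round layer (7.62%; limma, 1 of the 55 at an unadjusted p under 0.05). The falls in the hypertrophic relative to the flat layer numbered 13 of 55 with litter as a random block (3.83% of all tested genes) and 22 of 55 without the variance trend (4.01%). They numbered 13 of 54 without the hypertrophic array of litter 1 (2.25%), 26 of 55 without the flat array of litter 1 (2.69%) and 23 of 53 without the flat array of litter 3 (3.55%). Leaving out single arrays gave 43 to 53, 13 to 50 and 1 to 36 calls in the 3 contrasts. The share of all tested genes was counted for only some of these runs. For the hypertrophic layer, 0 of the 40 falls relative to the flat layer held in every alternative run. Of its 4 rises relative to the round layer, 0 did. Of the 50 rises in the flat relative to the round layer, 17 held in every alternative run that tested the gene: Acta1, Actc1, Cav3, Eno3, Mybpc1, Mybpc2, Myom2, Neb, Sln, Tcap, Tnnc1, Tnnc2, Tnnt1, Tnnt2, Tnnt3, Tpm1 and Ttn. Of these, Mybpc2, with a mean log2 value of 9.06, was not tested in the run with the filter raised to 9.09.

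**Figure D1:**
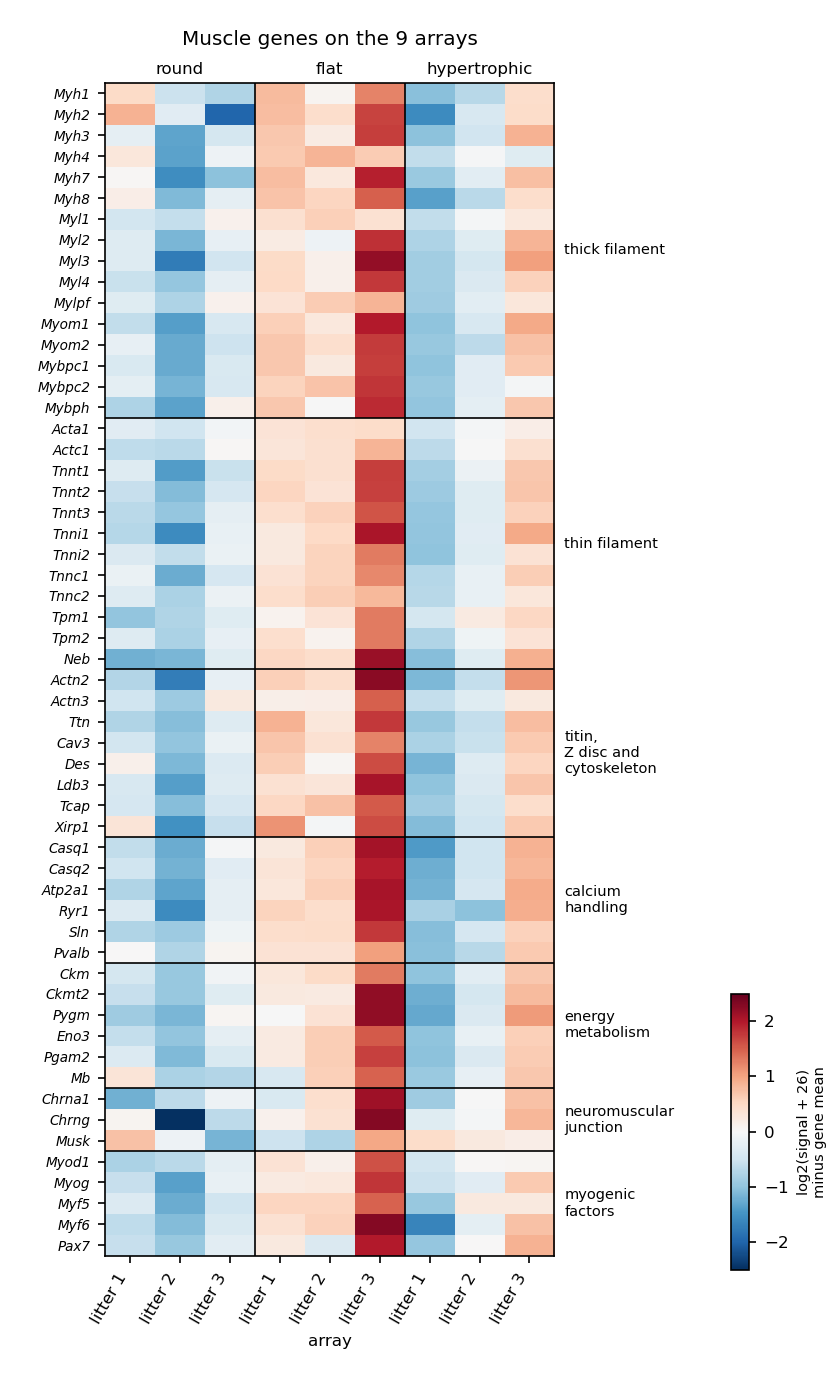
Each row is 1 muscle gene, grouped by role, and each column 1 array, ordered by layer and then litter. The colour is log2(signal + 26) minus the mean of that gene over the 9 arrays. The flat array of litter 3 is the highest in 54 of the 55 tested muscle genes (14.9% of all tested genes). The round array of litter 2 is the lowest in 32 (10.7%) and the hypertrophic array of litter 1 in 17 (10.1%).

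The start sites of several of these genes carry motifs that muscle and serum response factors are known to bind. RefSeq promoter windows (GRCm38.p6, 250 bases before to 50 after the start) were matched for 46 of the 56 genes, with 54 windows. The E-box CAGCTG, a motif bound by the MyoD family and the same on both strands, stood in 26 of the 54 windows, or 48.1%, against 16.3% of the 32851 windows of all genes. The general E-box CANNTG, which includes CAGCTG, stood in 83.3% against 72.3%. The CArG box, bound by serum response factor, stood in 7 windows, or 13.0%, against 1.63%. A MEF2 site stood in 1 window, that of Ttn, or 1.85%, against 0.557%. These are matches of letters in a window, and no binding was measured. Each pattern matches the same places on both strands, so only the strand of the gene was searched.

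As examples, the start regions of 5 genes are shown: a skeletal actin, a cardiac actin used in fetal muscle, a creatine kinase and 2 subunits of the acetylcholine receptor. The windows lie at chr8:123894726-123895025 (- strand) for Acta1, chr2:114052826-114053125 (- strand) for Actc1, chr7:19410844-19411143 (+ strand) for Ckm, chr2:73580289-73580588 (- strand) for Chrna1 and chr1:87205561-87205860 (+ strand) for Chrng, all in GRCm38.p6. They are written 5′ to 3′ on the strand of the gene, and capitals mark CAGCTG and CArG boxes.
Acta1: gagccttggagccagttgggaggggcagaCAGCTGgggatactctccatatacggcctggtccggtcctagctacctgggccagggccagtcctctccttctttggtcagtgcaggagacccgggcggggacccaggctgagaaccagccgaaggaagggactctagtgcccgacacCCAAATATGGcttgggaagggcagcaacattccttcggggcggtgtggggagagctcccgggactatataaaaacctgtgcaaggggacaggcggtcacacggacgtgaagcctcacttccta
Actc1: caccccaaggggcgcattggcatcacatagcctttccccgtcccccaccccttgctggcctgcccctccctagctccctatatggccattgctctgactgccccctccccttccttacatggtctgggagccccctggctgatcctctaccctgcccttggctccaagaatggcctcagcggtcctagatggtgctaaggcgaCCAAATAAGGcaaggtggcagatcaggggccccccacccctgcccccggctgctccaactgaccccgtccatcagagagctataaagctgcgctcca
Ckm: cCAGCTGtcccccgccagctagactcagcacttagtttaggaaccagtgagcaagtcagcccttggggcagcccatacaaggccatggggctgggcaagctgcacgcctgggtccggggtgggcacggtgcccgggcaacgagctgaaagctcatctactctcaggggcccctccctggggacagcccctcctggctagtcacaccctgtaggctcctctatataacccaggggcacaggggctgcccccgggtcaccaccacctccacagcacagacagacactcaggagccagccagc
Chrna1: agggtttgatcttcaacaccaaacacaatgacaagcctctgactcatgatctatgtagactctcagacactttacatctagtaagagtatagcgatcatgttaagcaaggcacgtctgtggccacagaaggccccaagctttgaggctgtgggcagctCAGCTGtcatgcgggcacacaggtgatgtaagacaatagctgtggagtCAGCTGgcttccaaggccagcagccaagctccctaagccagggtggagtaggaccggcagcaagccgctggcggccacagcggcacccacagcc
Chrng: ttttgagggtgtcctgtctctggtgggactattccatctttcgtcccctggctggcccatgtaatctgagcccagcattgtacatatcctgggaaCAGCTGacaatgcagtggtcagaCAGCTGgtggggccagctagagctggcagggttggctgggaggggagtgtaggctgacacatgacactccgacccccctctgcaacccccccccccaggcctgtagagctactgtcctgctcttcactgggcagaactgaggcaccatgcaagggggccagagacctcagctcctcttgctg
Counted from the start site, the Acta1 window has a CAGCTG at -221 and a CArG box at -73. The Actc1 window has a CArG box at -47 and no CAGCTG, and the Ckm window has a CAGCTG at -249. Each of the receptor windows holds CAGCTG at 2 places, at -92 and -44 in Chrna1 and at -155 and -132 in Chrng.

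Thin filament genes rose without exception in the flat layer: 12 of 12 relative to the round layer, with a median log2 difference of 1.28. In the hypertrophic layer 11 of 12 fell relative to the flat layer. Signals are given below for litters 1, 2 and 3 in that order, and as intensities on the linear scale. Acta1, the alpha-actin of adult skeletal muscle, had signals of 39962, 34115 and 45987 in the round layer, 61669.7, 64427 and 66130.1 in the flat layer and 34896, 46946 and 54045 in the hypertrophic layer. All 3 flat arrays lay above all 6 others. The log2 difference was 0.69 ± 0.14 (SE) for flat minus round, a 1.61-fold ratio with adjusted p = 0.00531, and -0.52 ± 0.14 for hypertrophic minus flat (adjusted p = 0.0335). Actc1, the cardiac alpha-actin that fetal skeletal muscle also makes, had 20098, 19704 and 31977 in the round layer, 38668, 41316 and 56040.0 in the flat layer and 19872, 30897 and 41171 in the hypertrophic layer. The flat arrays lay above the round arrays, and the hypertrophic array of litter 3 lay above the flat array of litter 1. Its log2 difference was 0.94 ± 0.14 for flat minus round and -0.61 ± 0.14 for hypertrophic minus flat.

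Neb encodes nebulin, the giant protein that runs along the thin filament. Its signals were 1344, 1410.0 and 2554 in the round layer, 4519, 4286 and 14009 in the flat layer and 1486, 2544 and 5821 in the hypertrophic layer. The flat array of litter 3 was the highest and the 2 lowest were round arrays. Neb had the largest flat minus round difference of the thin filament genes, 1.92 ± 0.19 on the log2 scale or 3.78-fold (adjusted p = 3.99e-05), and it also rose in the hypertrophic relative to the round layer, by 0.72 ± 0.19 (adjusted p = 0.0158). Tpm1, the alpha-tropomyosin that many cell types also make in other splice forms, had 6353, 7476 and 10249.8 in the round layer, 13313, 15983 and 30813 in the flat layer and 9318, 14629 and 17905 in the hypertrophic layer. Its hypertrophic arrays lay above the round array of the same litter in all 3 litters, and the hypertrophic minus round difference was 0.77 ± 0.14 (adjusted p = 0.00157). The fall of Tpm1 in the hypertrophic relative to the flat layer, -0.47 ± 0.14, was the smallest among the thin filament genes (adjusted p = 0.0493). Of 3 other Tpm1 probe sets above the filter, 1 ran the other way in this contrast, at 0.16, and the others gave -0.82 and -0.27. Tpm2, beta-tropomyosin, differed by 1.05 ± 0.20 for flat minus round. A second Tpm2 probe set above the filter ran the other way, at -0.24.

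The troponin complex has 3 subunits, each with slow and fast isoforms. Tnnt1, the slow tropomyosin-binding subunit, had 3265, 1549 and 2787 in the round layer, 5769.6, 5420.4 and 13709 in the flat layer and 2286, 3696 and 6555 in the hypertrophic layer. Its fast counterpart Tnnt3 had 9402, 7660.2 and 12752 in the round layer, 20115, 22222 and 44355 in the flat layer and 7701, 12168 and 22317 in the hypertrophic layer. Tnnt2, the form of cardiac and embryonic skeletal muscle, had 1658, 1169 and 1868 in the round layer, 3645, 3181 and 8236 in the flat layer and 1321, 2025 and 4075 in the hypertrophic layer. In each of these 3 genes all flat arrays lay above all round arrays, and the flat array of litter 3 was the highest. The flat minus round differences were 1.63 ± 0.27 for Tnnt1, 1.47 ± 0.18 for Tnnt3 and 1.56 ± 0.22 for Tnnt2, and those for hypertrophic minus flat -0.98 ± 0.27, -1.08 ± 0.18 and -1.03 ± 0.22, all past the threshold.

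Tnni1, the slow inhibitory subunit, had 2292, 1254 and 3319 in the round layer, 4473, 5356 and 15679 in the flat layer and 1883, 3113 and 7254 in the hypertrophic layer. Tnni2, the fast inhibitory subunit, had 13458, 11221 and 15354 in the round layer, 20364, 25461 and 42596 in the flat layer and 8620.4, 13989 and 22218 in the hypertrophic layer. Both were highest on the flat array of litter 3. The flat minus round difference was 1.75 ± 0.24 for Tnni1 and 1.08 ± 0.18 for Tnni2, and Tnni1 rose in the hypertrophic relative to the round layer by 0.71 ± 0.24 (adjusted p = 0.0497), while Tnni2 differed by 0.07 ± 0.18 (adjusted p = 0.824). Another Tnni2 probe set above the filter gave 0.46 for hypertrophic minus round and 1.26 for flat minus round, so the gap to Tnni1 depends on the probe set. Tnnc1, the calcium-binding subunit of slow and cardiac muscle, had 4868, 2309.6 and 4123 in the round layer, 7096, 8065 and 12730.1 in the flat layer and 3354, 4801 and 8406 in the hypertrophic layer. Tnnc2, the fast calcium-binding subunit, had 21650.3, 15651 and 24523 in the round layer, 36487, 41296 and 47577 in the flat layer and 16736, 23699.8 and 33065 in the hypertrophic layer. Both rose in the flat relative to the round layer, by 1.32 ± 0.25 and 1.04 ± 0.17. Tnnc2 fell in the hypertrophic relative to the flat layer by 0.82 ± 0.17. For Tnnc1 that difference was -0.81 ± 0.25 (adjusted p = 0.0553), the only one of the 12 thin filament genes not past the threshold.

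**Figure D2:**
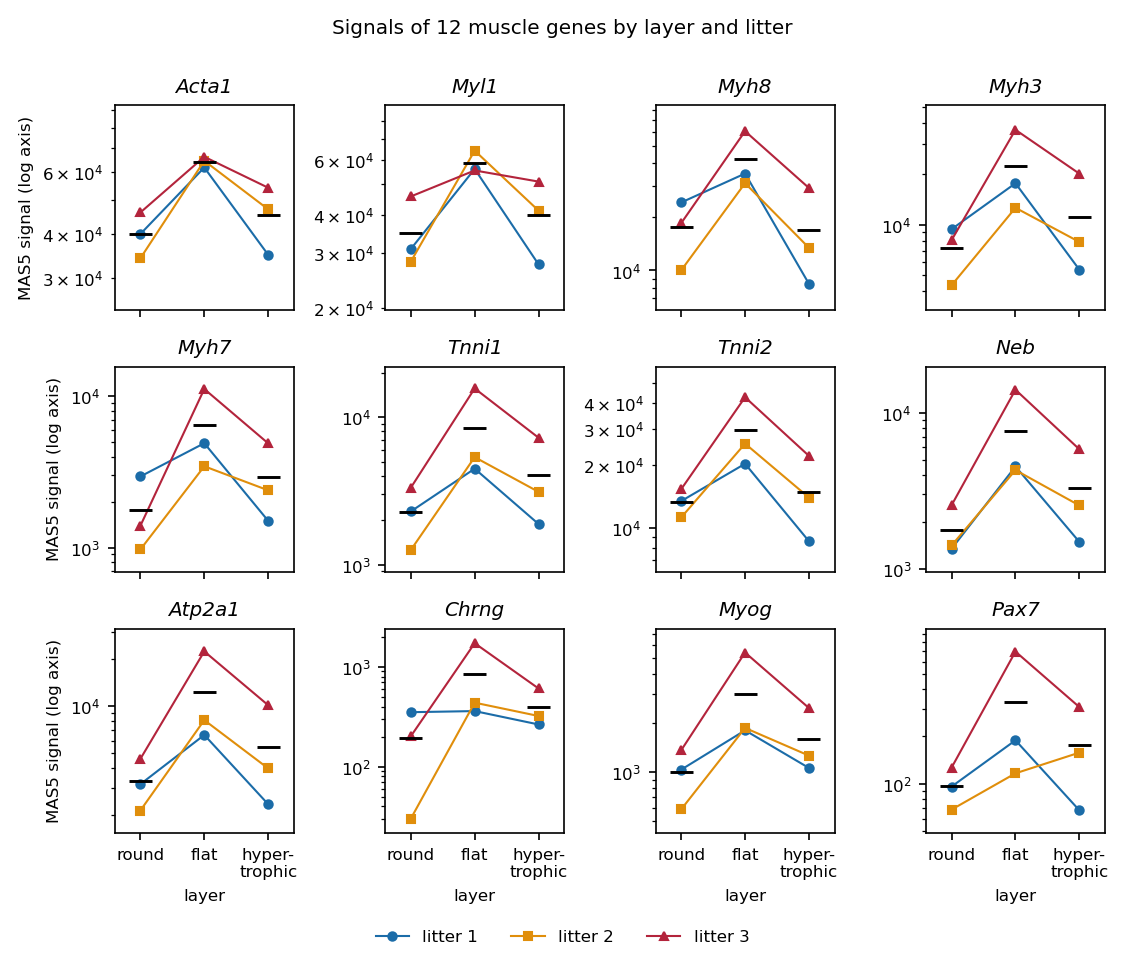
Signals of chosen muscle genes on each array, on a log axis, with a line joining the 3 layers of each litter, in the order round, flat and hypertrophic, and a bar for the mean of each layer (n = 3 litters). All flat arrays of Acta1 lie above the other 6 arrays, whereas the layers of Pax7 overlap.

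Of the 15 tested thick filament genes, 13 rose in the flat relative to the round layer and 9 fell in the hypertrophic relative to the flat layer. The embryonic myosin heavy chain Myh3 had 9379, 4355 and 8074 in the round layer, 17579, 12568 and 36534 in the flat layer and 5388, 7877 and 20045 in the hypertrophic layer. Perinatal Myh8 had 24118, 10016 and 18451 in the round layer, 35084, 30977 and 60726 in the flat layer and 8405, 13404 and 29089.7 in the hypertrophic layer. The flat arrays of both lay above every round array, and those of Myh8 above every hypertrophic array as well. Myh3 differed by 1.53 ± 0.29 for flat minus round and -1.08 ± 0.29 for hypertrophic minus flat. Myh8 differed by 1.29 ± 0.30 and -1.44 ± 0.30, each with an adjusted p under 0.05. Myh7, the heavy chain of slow fibres and heart ventricle, had 2951, 970.2 and 1393 in the round layer, 4899, 3447 and 11191 in the flat layer and 1502, 2390.4 and 4889 in the hypertrophic layer. With 1.84 ± 0.39 it had the largest flat minus round difference of the thick filament genes (adjusted p = 0.0061). Its hypertrophic minus flat difference of -1.13 ± 0.39 did not pass the threshold (adjusted p = 0.0847).

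Among the heavy chains of adult fast fibres, Myh1 and Myh2 did not pass in any contrast. Myh2, the type 2A chain, had 264, 105 and 14.4 in the round layer, 248, 191 and 488 in the flat layer and 28.0, 94.8 and 194 in the hypertrophic layer. Myh1, the type 2X chain, had 766, 363 and 312 in the round layer, 957, 567 and 1306 in the flat layer and 247, 323 and 744 in the hypertrophic layer. Myh4, the type 2B chain, which did not pass the filter and was not tested, had 142, 28.2 and 101 in the round layer, 191, 221 and 187 in the flat layer and 63.5, 109 and 85.1 in the hypertrophic layer. Round and flat arrays overlapped for Myh1 and Myh2, and round arrays of litter 1 reached the level of flat arrays. The flat minus round differences, 1.44 ± 0.68 for Myh2 (adjusted p = 0.179) and 0.97 ± 0.37 for Myh1 (adjusted p = 0.0939), did not pass. For Myh4 the untested value was 1.10. The Myh1 probe set is of a type that may also bind related transcripts. Another Myh1 probe set above the filter differed by 1.52 for flat minus round.

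All 5 myosin light chains rose in the flat relative to the round layer, and 2 of them, Mylpf and Myl4, fell in the hypertrophic relative to the flat layer. Mylpf, the regulatory light chain of fast fibres, had 25852, 18505 and 34172 in the round layer, 40091, 49026 and 57577 in the flat layer and 17234, 26609.9 and 38939 in the hypertrophic layer. Myl1, the essential light chain of fast fibres, had 30982, 28221 and 45730.1 in the round layer, 56055, 64202 and 55444 in the flat layer and 27649.8, 41174 and 51052 in the hypertrophic layer. In both the 3 flat arrays lay above the other 6, and Myl1 was the single tested gene whose highest array was not the flat array of litter 3. Myl1 differed by 0.77 ± 0.18 for flat minus round (adjusted p = 0.01) and Mylpf by 0.93 ± 0.18 (adjusted p = 0.00397). For hypertrophic minus flat, Mylpf differed by -0.89 ± 0.18 (adjusted p = 0.00849) and Myl1 by -0.59 ± 0.18, which did not pass (adjusted p = 0.0511).

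Myl2, the regulatory light chain of slow fibres and ventricle, had 1096, 610.1 and 1188 in the round layer, 1600.3, 1262 and 4981 in the flat layer and 794, 1115 and 2521 in the hypertrophic layer. Myl3, the matching essential light chain, had 1253, 452 and 1116 in the round layer, 2207, 1727 and 7319 in the flat layer and 847, 1156 and 3207 in the hypertrophic layer. Myl4, the embryonic and atrial essential light chain, had 3474, 2594 and 4393 in the round layer, 7259, 5612 and 17367 in the flat layer and 2796, 3955 and 7677 in the hypertrophic layer. For these 3 genes the flat array of litter 3 stood 1.44 to 1.89 log2 units above the mean of the flat arrays of litters 1 and 2. The flat minus round differences were 1.20 ± 0.26 for Myl2, 1.79 ± 0.32 for Myl3 and 1.38 ± 0.20 for Myl4, all past the threshold. Only Myl4 of the 3 also passed for hypertrophic minus flat, at -1.02 ± 0.20 (adjusted p = 0.00739), against -0.71 ± 0.26 for Myl2 (adjusted p = 0.11) and -1.04 ± 0.32 for Myl3 (adjusted p = 0.0554). The other thick filament genes, Mybpc1, Mybpc2 and Mybph of the myosin-binding protein family and the M line proteins Myom1 and Myom2, all rose in the flat relative to the round layer, by 1.51 to 1.74, and fell in the hypertrophic relative to the flat layer.

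Ttn encodes titin, the molecular spring that spans from the Z disc to the M line. Ttn had 6431, 5157 and 8643 in the round layer, 19803, 13126 and 36971 in the flat layer and 5639.8, 7162 and 18649.5 in the hypertrophic layer. Actn2, the alpha-actinin that cross-links actin at the Z disc of all fibres, had 2791, 1371 and 4014 in the round layer, 7016, 6248 and 22054 in the flat layer and 2123, 3032 and 9937 in the hypertrophic layer. For both, every flat array lay above every round array, and the hypertrophic arrays of litter 3 overlapped the flat arrays. Actn2 had the largest flat minus round difference among the 8 genes of titin, the Z disc and the cytoskeleton, 1.98 ± 0.25 (adjusted p = 0.000178). It also had the largest drop in the hypertrophic relative to the flat layer, -1.30 ± 0.25. Ttn differed by 1.69 ± 0.20 and -1.22 ± 0.20. All 8 genes of this group, which also holds Actn3, Ldb3, Tcap, Des, Xirp1 and Cav3, rose in the flat relative to the round layer, and 7 fell in the hypertrophic relative to the flat layer, Xirp1 (adjusted p = 0.0714) being the exception.

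Calcium handling genes changed in both steps: 6 of 6 rose in the flat relative to the round layer and 6 of 6 fell in the hypertrophic relative to the flat layer. Atp2a1 encodes the calcium pump of the sarcoplasmic reticulum in fast fibres. Its signals were 3155, 2139.6 and 4589 in the round layer, 6534, 8137 and 22454 in the flat layer and 2348, 3986 and 10139 in the hypertrophic layer. The flat arrays lay above the round arrays, and the flat minus round difference of 1.75 ± 0.23 was the largest of the group (adjusted p = 0.000282). Ryr1, the calcium release channel, had 1403, 584 and 1527 in the round layer, 2630.2, 2416 and 7445 in the flat layer and 1004, 865 and 3367 in the hypertrophic layer. It had the largest drop of the group in the hypertrophic relative to the flat layer, -1.32 ± 0.24 (adjusted p = 0.00422).

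Casq1 and Casq2 encode the calcium stores of fast and of slow and cardiac muscle. Casq1 had 1958, 1254 and 2933 in the round layer, 3578, 4527 and 12745 in the flat layer and 1115, 2128 and 5546 in the hypertrophic layer. Casq2 had 2871, 1759 and 3337 in the round layer, 5049.5, 5885 and 15931 in the flat layer and 1723, 2852 and 7235 in the hypertrophic layer. The flat array of litter 3 was the highest for both, with flat minus round differences of 1.60 ± 0.25 and 1.59 ± 0.26. Sln encodes sarcolipin, a small inhibitor of the calcium pump, and had 4604, 4113 and 7200.2 in the round layer, 10579, 10710.5 and 26504 in the flat layer and 3667, 5779 and 11504 in the hypertrophic layer. It rose by 1.48 ± 0.17 in the flat relative to the round layer. Pvalb, the calcium buffer parvalbumin, had the smallest difference of the 6, 0.81 ± 0.25 (adjusted p = 0.0456).

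Of the 6 genes of energy metabolism, 5 rose in the flat relative to the round layer and the same number fell in the hypertrophic relative to the flat layer. Ckm, the creatine kinase of muscle whose start region is printed above, had 16575, 11682 and 21208 in the round layer, 27129, 31283 and 54932 in the flat layer and 11162, 18656 and 35545 in the hypertrophic layer. The 3 flat arrays lay above the 3 round arrays, while the hypertrophic array of litter 3 lay above the flat arrays of litters 1 and 2. Ckm differed by 1.17 ± 0.20 for flat minus round and -0.88 ± 0.20 for hypertrophic minus flat. Pygm, glycogen phosphorylase of muscle, had 966, 804 and 1892 in the round layer, 1810.2, 2352 and 8537 in the flat layer and 729, 1399 and 3807 in the hypertrophic layer and the largest flat minus round difference of the group, 1.52 ± 0.23. Ckmt2, the creatine kinase of muscle mitochondria, had 679, 516 and 829 in the round layer, 1225, 1195 and 4855 in the flat layer and 427, 754 and 1803 in the hypertrophic layer and the largest drop in the hypertrophic relative to the flat layer, -1.18 ± 0.29. Mb, the oxygen-binding myoglobin, did not pass in any contrast, with 0.97 ± 0.45 for flat minus round (adjusted p = 0.173).

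At the neuromuscular junction, Chrng and Chrna1 encode the gamma subunit, which marks the fetal acetylcholine receptor, and the alpha subunit. Chrng had 352, 30.1 and 202 in the round layer, 361, 438 and 1728 in the flat layer and 265, 322 and 607 in the hypertrophic layer. The round array of litter 2 was near the pseudocount, and the flat array of litter 3 was far above the rest. The flat minus round difference was 2.01 ± 0.49 (adjusted p = 0.0137). Chrna1 had 136, 212 and 316 in the round layer, 264, 474 and 1602 in the flat layer and 176, 346 and 601 in the hypertrophic layer and differed by 1.39 ± 0.26 (adjusted p = 0.00267). Musk, the kinase that organises the junction, had 225, 113 and 42.3 in the round layer, 80.7, 63.2 and 272 in the flat layer and 183, 155 and 145 in the hypertrophic layer. The layers overlapped and the difference was 0.09 ± 0.52 (adjusted p = 0.937), which leaves room for a change of either sign. None of the 3 passed for hypertrophic minus flat or hypertrophic minus round.

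Of the 5 transcription factors of muscle formation, 4 rose in the flat relative to the round layer and 2 fell in the hypertrophic relative to the flat layer. Myod1, which commits cells to the muscle lineage, had 211, 228 and 318 in the round layer, 497, 419.7 and 1208 in the flat layer and 273, 391 and 397 in the hypertrophic layer. All 3 flat arrays lay above the other 6. Myog, which drives the differentiation of myoblasts, had 1036, 592 and 1361 in the round layer, 1801, 1863 and 5388 in the flat layer and 1061, 1262 and 2465 in the hypertrophic layer. It rose in the flat relative to the round layer by 1.45 ± 0.20 and in the hypertrophic relative to the round layer by 0.65 ± 0.20 (adjusted p = 0.0365). Myod1 differed by 1.26 ± 0.25 for flat minus round (adjusted p = 0.00384).

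Myf5, a factor of early myoblasts, had 184, 86.0 and 163 in the round layer, 359, 359 and 713 in the flat layer and 112, 290.3 and 288 in the hypertrophic layer. Its 3 flat arrays too lay above the other 6. Myf6, the factor of late differentiation also called MRF4, had 252, 176 and 305 in the round layer, 536, 611 and 2069 in the flat layer and 111, 337 and 692 in the hypertrophic layer. It had the largest difference of the group for flat minus round, 1.78 ± 0.34 (adjusted p = 0.00335), and for hypertrophic minus flat, -1.46 ± 0.34 (adjusted p = 0.0156). Pax7 marks satellite cells, the stem cells of muscle. Pax7 had 95.9, 68.5 and 127 in the round layer, 189, 117 and 694 in the flat layer and 67.7, 158 and 308 in the hypertrophic layer. Its signal was highest on the flat array of litter 3, the 3 layers overlapped, and 1.22 ± 0.39 for flat minus round did not pass (adjusted p = 0.0528).

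Embryonic and perinatal, slow and fast isoforms were compared as groups, by counts and medians and with no test of the difference between the groups. Of the 6 embryonic and perinatal genes (Myh3, Myh8, Actc1, Myl4, Tnnt2 and Chrng), 6 rose in the flat relative to the round layer, with a median log2 difference of 1.46. All 8 slow fibre genes (Myh7, Myl2, Myl3, Tnnt1, Tnni1, Tnnc1, Mybpc1 and Casq2) rose, with a median of 1.61. Of the 12 tested of 13 fast fibre genes, 10 rose, with a median of 1.06, where 8.39% of all tested genes rose. For hypertrophic minus flat, 5 of 6, 4 of 8 and 9 of 12 fell (5.22% of all tested genes), and the medians were -1.02, -1.04 and -1.05. For hypertrophic minus round 0 of 6, 1 of 8 and 0 of 12 rose (12.4% of all tested genes), and the medians were 0.41, 0.58 and 0.18. In litter 1 alone the group medians of that contrast were -0.35, -0.54 and -0.61. The fast group holds 3 of the 5 muscle probe sets with the highest mean signals (Myl1, Mylpf and Tnnc2), and the part of brightness in these medians was not tested.

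**Figure D3:**
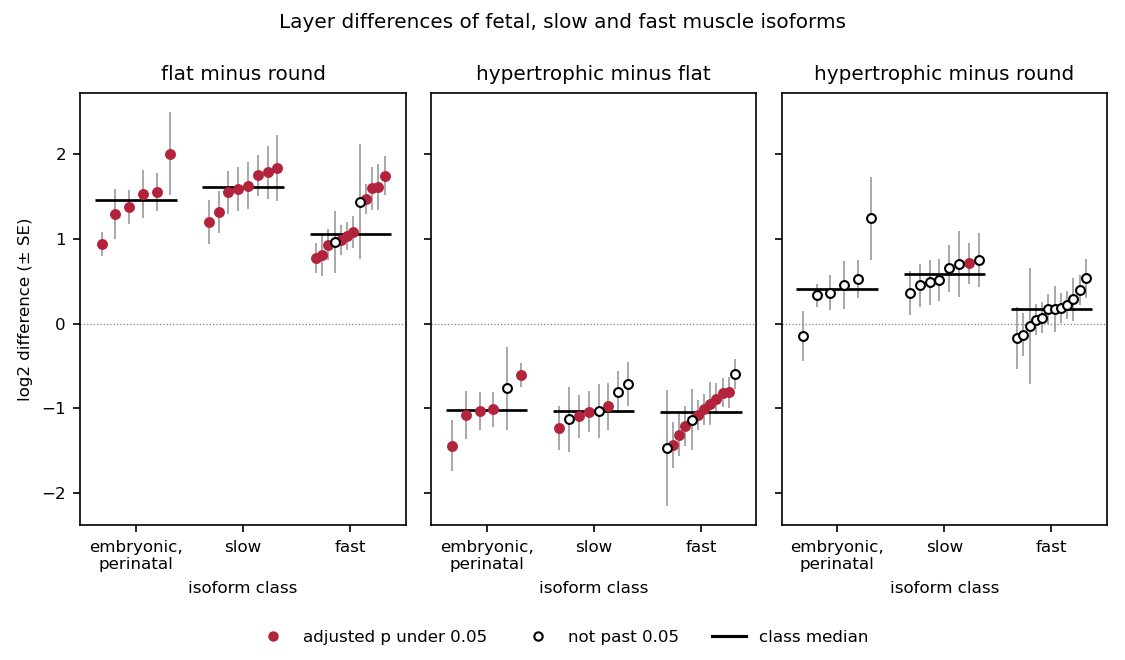
Log2 differences of single genes in the embryonic and perinatal, slow and fast groups for the 3 contrasts, with error bars of ± SE, filled points for an adjusted p under 0.05 and a line at each group's median. For flat minus round the medians are 1.46, 1.61 and 1.06, and the ranges of the groups overlap.

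Paralogue pairs show how far isoforms of 1 protein moved apart within a litter. The slow minus fast difference of the flat minus round values was 0.67 ± 0.28 (SD, n = 3 litters) for Tnni1 and Tnni2, with 0.36, 0.89 and 0.76 in the 3 litters. For Tnnt1 and Tnnt3 it was 0.16 ± 0.39, for Tnnc1 and Tnnc2 0.28 ± 0.45, and for Casq2 and Casq1 -0.01 ± 0.13. These 3 means were smaller than the spread between litters. Myl3 and Myl1 differed by 1.02 ± 1.26, with values of -0.05, 0.69 and 2.41 in the 3 litters, the highest of them in litter 3. Fetal Actc1 moved more than adult Acta1 in every litter, by 0.25 ± 0.09, both being among the 5 brightest probe sets. Embryonic Myh3 minus perinatal Myh8 gave 0.24 ± 0.30 for flat minus round and 0.60 ± 0.15 for hypertrophic minus round. Slow Myh7 minus Myh8 gave 0.54 ± 0.63 and 0.85 ± 0.29. For flat minus round, Actn2 of all fibres minus fast Actn3 gave 0.99 ± 0.28, positive in every litter. In that contrast Mybpc1 minus Mybpc2 gave -0.07 ± 0.30, Tnnt2 minus Tnnt3 0.08 ± 0.22 and Myl2 minus Mylpf 0.27 ± 0.90. Myl4 minus Myl1 gave 0.61 ± 0.96 and Chrng minus Chrna1 0.62 ± 1.39. All pair values rest on the chosen probe sets. For flat minus round, another Tnni2 probe set above the filter gave 1.26 (chosen 1.08). The other Myl3 probe sets above it gave 1.32 and 1.38 (chosen 1.79). With these, Tnni1 minus Tnni2 and Myl3 minus Myl1 would be smaller. The others of Mybpc1 lay on either side of its chosen value, and that of Tnnt2 gave 1.54 (chosen 1.56).

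Within litters, the order of layers was nearly uniform across the muscle genes. The flat array lay above both other layers in every litter for 51 of 55 genes, against 7.94% of all tested genes, the exceptions being Myh2, Mb, Musk and Pax7. Across litters, all 3 flat arrays lay above all 3 round arrays for 44 genes (12.0% of all tested genes) and above all 3 hypertrophic arrays for 9 genes (9.43% of all tested genes): Acta1, Myh8, Myl1, Mylpf, Tnnc2, Mybpc2, Tcap, Myod1 and Myf5. The median flat minus round difference of the 55 genes was 0.82 in litter 1, 1.47 in litter 2 and 2.09 in litter 3. For hypertrophic minus flat it was -1.38, -0.74 and -1.09.

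The amount of muscle signal differed between litters as well as layers. Relative to each gene's mean over the 9 arrays, the median deviation of the 55 genes was -0.41, -1.09 and -0.26 on the round arrays, 0.40, 0.40 and 1.72 on the flat arrays and -0.95, -0.30 and 0.66 on the hypertrophic arrays of litters 1, 2 and 3, while the median over all tested genes stayed between -0.04 and 0.02. The flat array of litter 3 was the highest of the 9 for 54 genes, against 14.9% of all tested genes. Litter 3 lay above litters 1 and 2 in the flat layer for 54 genes (33.1% of all tested genes), in the hypertrophic layer for 53 (34.1%) and in the round layer for 37 (30.6%). The summed signal of the 56 genes was 227394 to 375562 on the round arrays, 549619.9 to 1003031 on the flat arrays and 233882 to 577973 on the hypertrophic arrays. The median percentile of the 55 genes among all tested genes ran between 67.9 on the round array of litter 2 and 97.7 on the flat array of litter 3.

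**Figure D4:**
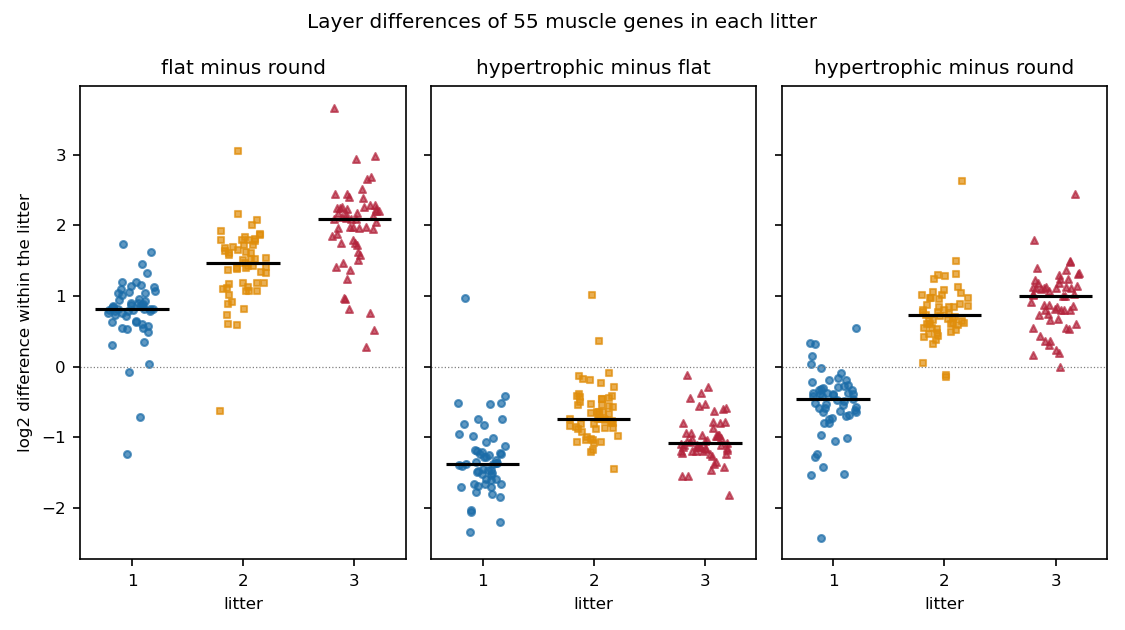
Log2 differences of the 55 tested muscle genes within each litter, with a panel for each contrast, a point for each gene and a line at the median. For hypertrophic minus round the median is -0.45 in litter 1 and above 0 in litters 2 and 3.

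Hypertrophic and round layers compared differently in different litters. The hypertrophic array lay above the round array in litter 1 for 5 of 55 genes (Tpm1, Neb, Chrna1, Myod1 and Myog), against 49.0% of all tested genes. In litter 2 it did so for 53 genes, against 50.1%, and in litter 3 for 54, against 51.4%. The pattern of below in litter 1 and above in litters 2 and 3 held for 47 genes (10.8% of all tested genes). The median difference was -0.45 in litter 1 and 0.73 in litter 2, and in litter 3 it was higher than in litter 2. Without the round array of litter 1, 36 of 53 tested muscle genes rose in the hypertrophic relative to the round layer, when 13.3% of all tested genes rose. That array also had the highest ratios of 3′ to 5′ control signal, a measure of RNA integrity: 4.25 for actin and 2.59 for Gapdh, where the other 8 arrays lay at 1.45 to 2.06 and 0.922 to 1.28. Leaving out the hypertrophic array of litter 1 in its place gave 22 of 54, when 8.18% of all tested genes rose. The part of RNA integrity in these differences was not tested.

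The probe sets with the highest signals had the smallest excess on the flat array of litter 3; signal ranks probe sets, not transcripts. The flat array of litter 3 exceeded the mean of the other flat arrays by -0.11 to 0.49 log2 units for the 5 probe sets with the highest mean signal (Acta1, Myl1, Mylpf, Actc1 and Tnnc2, at 28965 to 49798), and by 0.67 to 2.10 for the other 50. The highest signal of any probe set on an array was 70753.5 to 112040. Acta1 ranked between the third and the 141st of all probe sets. The part of a ceiling on signal in the small differences of these 5 genes was not tested.

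**Figure D5:**
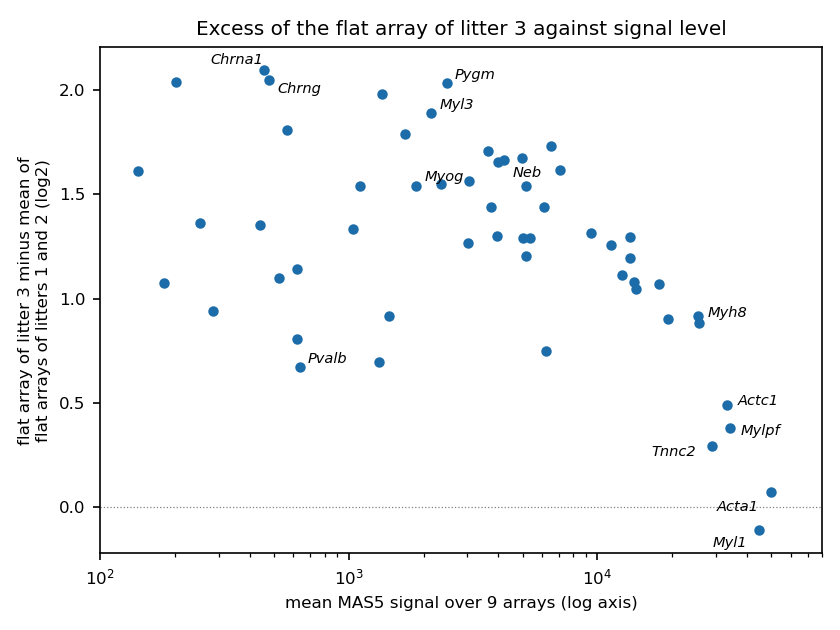
The x axis gives the mean signal of each muscle gene over 9 arrays (log axis), and the y axis its log2 signal on the flat array of litter 3 minus the mean of the flat arrays of litters 1 and 2. The 5 genes with the highest signals lie at -0.11 to 0.49, below the other 50.

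Other probe sets were available for some of the genes. Of 23 further single-gene probe sets above the filter, from 12 genes, 22 had the same direction as the chosen probe set for flat minus round, 22 for hypertrophic minus flat and 20 for hypertrophic minus round. Of 13 more below the filter, from 12 genes, 10, 11 and 6 had the same direction in these contrasts. The other Chrng probe sets, both below the filter, gave -0.10 and 1.31 for flat minus round. The chosen probe sets of Myh1, Tpm2, Myom2, Myl3 and Casq2 are of types that may bind related transcripts, so their values are less certain as measures of 1 gene.

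Another 67 skeletal muscle genes, of which 61 are on the array and 55 were tested, had medians of the same signs. Relative to the round layer, 38 of the 55 rose in the flat layer and 0 fell, with a median of 1.23. Of all tested genes, 8.39% rose and 8.64% fell in that contrast. In the hypertrophic relative to the flat layer 33 fell and 0 rose, against 5.22% and 6.12%. In the hypertrophic relative to the round layer 14 rose and 1 fell, against 12.4% and 12.7%, where 4 of the 55 genes of the first list rose. The gene that fell was Cacna2d1, a calcium channel subunit also made outside muscle. Trdn, the triadin of the calcium release complex, had 1670.3, 464 and 819 in the round layer, 3415, 3899 and 5361 in the flat layer and 864, 1828 and 2842 in the hypertrophic layer, and rose most in the flat relative to the round layer, by 2.23 ± 0.40 (adjusted p = 0.00211). The next were Smyd1, a methyltransferase of muscle, by 1.85 ± 0.25, the ubiquitin ligase Trim63 by 1.75 ± 0.27, the sarcomere assembly factor Klhl41 by 1.74 ± 0.15 and the muscle ADP-ribosyltransferase Art1 by 1.73 ± 0.22. Myoz3, Mymk, Chrnd, Chrne, Phkg1 and Pax3 did not pass the filter, Chrne being the epsilon subunit that replaces Chrng in the adult receptor.

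Genes outside the lists also followed the muscle genes across the arrays within layers. The measure was Pearson's r between a gene's deviations from its layer means and the median deviation of the 55 genes over the 9 arrays, which share litter and array. Each of the 55 helped to form that median, which raises its own r. Among them r had a median of 0.958 and a minimum of 0.29, for Musk, and 39 exceeded 0.9. Of 11203 other genes, 186 exceeded 0.9. The 10 highest were Mypn, Art3, Dmpk, Pdlim5, Synpo2, Hjv, Fndc5, Cobl, Hook1 and Atp1b4, with r of 0.985 to 0.994. With layer means removed, r does not measure a difference between layers. Dmpk and Hook1 did not pass for flat minus round in limma, at 0.61 ± 0.27 (adjusted p = 0.146) and 0.72 ± 0.30 (adjusted p = 0.132). Mypn, the Z disc protein myopalladin, had 629, 417 and 861 on the round arrays, 1311, 1212 and 3865 on the flat arrays and 516, 759 and 1802 on the hypertrophic arrays. Synpo2 is also on the list of smooth muscle markers.

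Markers of other cells that a hand-cut section can hold were counted beside the muscle genes. Of 9 heart muscle markers, 8 were on the array and 0 passed the filter, with summed signals of 294 to 738 and mean signals between 22.6 (Myl7) and 117 (Mybpc3). Of 11 smooth muscle and pericyte markers 9 were tested, of which 4 rose and 1 fell in the flat relative to the round layer, and the sums were 24203 to 30434 on the round arrays, 29723 to 32351 on the flat arrays and 19642 to 23647 on the hypertrophic arrays. The 10 markers of tendon, perichondrium and fibroblasts had 0 rises and 4 falls in the same contrast, with sums of 235904 to 273722 on the round arrays, 195142 to 260777 on the flat arrays and 172112 to 192485 on the hypertrophic arrays. For nerve and Schwann cells 0 of 6 rose and 2 fell, for fat cells 0 of 3 changed, for erythroid cells 2 of 3 rose, for osteoclasts 6 of 9 rose and 1 fell, for endothelial cells 1 of 10 rose and 3 fell, and for chondrocytes 1 of 10 rose and 5 fell. In the hypertrophic relative to the flat layer, where 40 muscle genes fell, the markers that fell were 5 of 9 for smooth muscle and pericytes, 4 of 10 for tendon, perichondrium and fibroblasts, 4 of 10 for chondrocytes, 1 of 6 for nerve and 1 of 10 for endothelial cells. In that contrast 9 of 9 osteoclast and 6 of 10 endothelial markers rose, and no marker of fat or erythroid cells changed. Osteoclast markers were highest in the hypertrophic layer, with sums of 7084 to 8758 on the round arrays, 14115 to 19065 on the flat arrays and 76051 to 100089.6 on the hypertrophic arrays. Of all tested genes, 8.39% rose and 8.64% fell for flat minus round, and 6.12% rose and 5.22% fell for hypertrophic minus flat. The part of any of these cells in the muscle signal was not tested.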

How the data were processed

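RNA of 3 layers from 3 litters was measured on 9 Affymetrix mouse arrays. Signal intensities of 45101 probe sets were deposited by the authors, and MAS5 and Affymetrix Expression Console are named in the submitters' processing notes (their versions are not given in the sources used here). Every column of deposited intensities has a trimmed mean of 500.003 (2% left out at either end), so arrays were scaled to 1 level, and array medians lay at 123 to 152. The number of arrays limits the precision.

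For each of 18193 genes the brightest probe set that maps to it alone was used. Values were analysed as log2(signal + 26), with 26 taken from the 20th percentile of the table, so that folds of low genes are understated. Genes with a mean above 7.21, the median of non-control probe sets, were tested (11313). limma 3.58.1 in R 4.3.3 fitted layer and a fixed litter block to all 9 arrays, with a variance trend (4 residual and 8.15 prior degrees of freedom) and Benjamini-Hochberg adjustment over all tested genes within each contrast. Rose, fell and changed are used only below an adjusted p of 0.05, and ± after a log2 difference is its SE. Replicate numbers mark litters in the design text, and same-litter arrays deviated together (r 0.167 to 0.517 in 9 pairs, against -0.434 to 0.081 in 18 others). Deviations were taken from each layer's mean, so a positive r within litters forces a lower r between litters, and the gap is partly arithmetic.

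The muscle genes, lists and tests were chosen with earlier results of these data known. Named genes are the best-known isoforms of each role, the largest difference per role and contrast, the 5 largest rises among further muscle genes and the 10 genes most alike by r. Alternatives covered the litter block, variance trend, pseudocount, filter, scaling, probe set summary and left-out arrays. Promoters are from RefSeq (GRCm38.p6), and symbols from GEO's platform annotation.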

Additional observations from a re-analysis of the deposited data

How the results depend on the processing

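Every count below is of muscle genes past the threshold for flat minus round (higher), hypertrophic minus flat (lower) and hypertrophic minus round (higher), where the main values are 50, 40 and 4 of 55; the number tested moves slightly with the arrays left out and with the filter. With no replicate block they were 20, 1 and 0. With litter as a random block they were 49, 13 and 1, and with no variance trend 45, 22 and 1. Without litter 3 they were 38, 29 and 1. Without round 1 and flat 3 together (layer and litter number) they were 51, 45 and 41. The share of all tested genes was not counted for either of these runs. Leaving out 1 array at a time gave 43 to 53, 13 to 50 and 1 to 36, with that share counted for only some arrays. Where counted, main fit included, it ran from 1.74% to 5.22% for hypertrophic minus flat and from 7.62% to 13.3% for hypertrophic minus round. The lowest hypertrophic minus flat count came without the hypertrophic array of litter 1, and counts of 26 and 23 came without the flat arrays of litters 1 and 3. The highest hypertrophic minus round count came without the round array of litter 1, 22 came without the hypertrophic array of litter 1, 2 without the round array of litter 2, and 1 without the round array of litter 3 or the hypertrophic array of litter 2 or 3. Pseudocounts of 6.5 and 104, a stricter or no filter, median centring, quantile normalization and the mean of all probe sets kept each count within 1.5 times the main one. No difference of a tested muscle gene that passed the threshold reversed. The isoform group medians were recomputed under median centring, quantile normalization, the mean of all probe sets and pseudocounts of 6.5 and 104. In each they moved by less than 1 SD between litters. That bound is wide. For hypertrophic minus round the litter medians of the slow group ran from -0.54 to 1.14, about a median of 0.58. It therefore cannot show that a sign or the order of the groups was kept. They were not recomputed with other blocks, filters or variance settings, or with arrays left out. Low signals limit Myh4, Myh2, Pax7, Myf5, Mb and Musk.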
